A study of Homo sapiens with 12 samples.

Results

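Of the 1733 entries in the miRNA count tables of this series, 7 are listed as miRNAs although they may be fragments of other RNAs or lack the hairpin that defines a miRNA. They were found by their names in the tables, hsa-mir-1246, hsa-mir-4454, hsa-mir-7704, hsa-mir-1268a, hsa-mir-1268b, hsa-mir-1275 and hsa-mir-7974, and are written here as miR-1246 and so on. They had been picked because they change when MYEOV is knocked down, so their changes on knockdown are given below as a description, and how many of them were called is printed once, beside the share over all entries, with nothing read from it. Small RNA was sequenced from AsPC-1 and PANC-1, which are human cell lines of pancreatic ductal adenocarcinoma (PDAC). Each line had 3 control libraries and 3 libraries with siRNA knockdown of MYEOV, a gene overexpressed in several tumours, which makes 12 libraries in 4 groups. The protocol describes siRNA transfection with a lipid reagent and the labels give a harvest after 48 h, while the methods text gives a shorter time. The knockdown libraries carry a number from 1 to 3 and the protocol names 2 siRNAs, so the siRNA of each library is not known. The sample descriptions call the controls untreated, while the protocol lists a negative control siRNA. The lines were grown in different media (RPMI for AsPC-1 and DMEM for PANC-1), so line and medium cannot be told apart.

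The libraries held 3805084 to 7311783 counted reads and listed 1014 to 1144 entries each. AsPC-1 was sequenced more deeply (5587106 to 7311783 counts) than PANC-1 (3805084 to 5049361 counts). MYEOV itself is not a small RNA, so the degree of knockdown was not measured here. The 5 members of the miR-200 family, which mark epithelial cells, summed to between 48678 and 52667 CPM (counts per 1000000 counts of the library) in AsPC-1, and to between 212 and 276 CPM in PANC-1, and miR-205-5p, another epithelial marker, was not listed. Acinar markers (miR-216a-5p, miR-216b-5p and miR-217) stayed at or below 0.509 CPM in every library. Markers of pancreatic endocrine cells (miR-375 and miR-7-5p) summed to between 42430 and 55891 CPM in AsPC-1 and to between 15127 and 19196 CPM in PANC-1. Blood markers summed to between 392 and 563 CPM, and fibroblast or muscle markers to between 2.53 and 64.1 CPM. The hepatocyte marker miR-122-5p had 2.38 to 10.8 CPM.

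A canonical miRNA is cut by Drosha and Dicer from a short hairpin, is loaded into an Argonaute protein, and finds its targets mainly by bases 2 to 8 at its 5′ end, the seed. Abundant structured RNAs such as the U2 small nuclear RNA (snRNA) of the spliceosome, tRNAs and ribosomal RNAs are also trimmed into fragments of similar length, and a read that fits both sources is counted under the miRNA name if a database lists one. The mature sequences of the 7 entries (RefSeq, GRCh38.p14 table) are shown because the sources they can be read from follow from them. The seed is in capitals.
miR-1246: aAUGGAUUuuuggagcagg
miR-4454: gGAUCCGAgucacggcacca
miR-7704: cGGGGUCGgcggcgacgug
miR-1268a: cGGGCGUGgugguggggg
miR-1268b: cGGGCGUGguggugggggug
miR-1275: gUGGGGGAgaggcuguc
miR-7974: aGGCUGUGaugcucuccugagccc

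The 7 sequences are 17 to 24 nt long, against a median of 22 nt over 2370 human mature sequences. All but miR-1246 (42.1% GC) are rich in G and C, from 62.5% in miR-7974 to 84.2% in miR-7704, against a median of 52.2%. MiR-1268a and miR-1268b share their seed, and the whole of miR-1268a (18 nt) is the 5′ part of miR-1268b. MiR-1275 shares its seed with miR-4665-5p. The seeds of the other 4 occur in no other sequence of the table.

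In GRCh37, the build to which the authors mapped the reads, the mature sequences had between 1 and 34 perfect matches. Of the 7, 4 had more than 1 match, against 16.5% of all 2370 sequences searched. The number of matches was 34 for miR-1268a, 7 for miR-1246, 5 for miR-1268b and 4 for miR-1275, and 1.90% of all sequences had 7 or more. MiR-4454, miR-7704 and miR-7974 matched once.

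**Figure D1:**
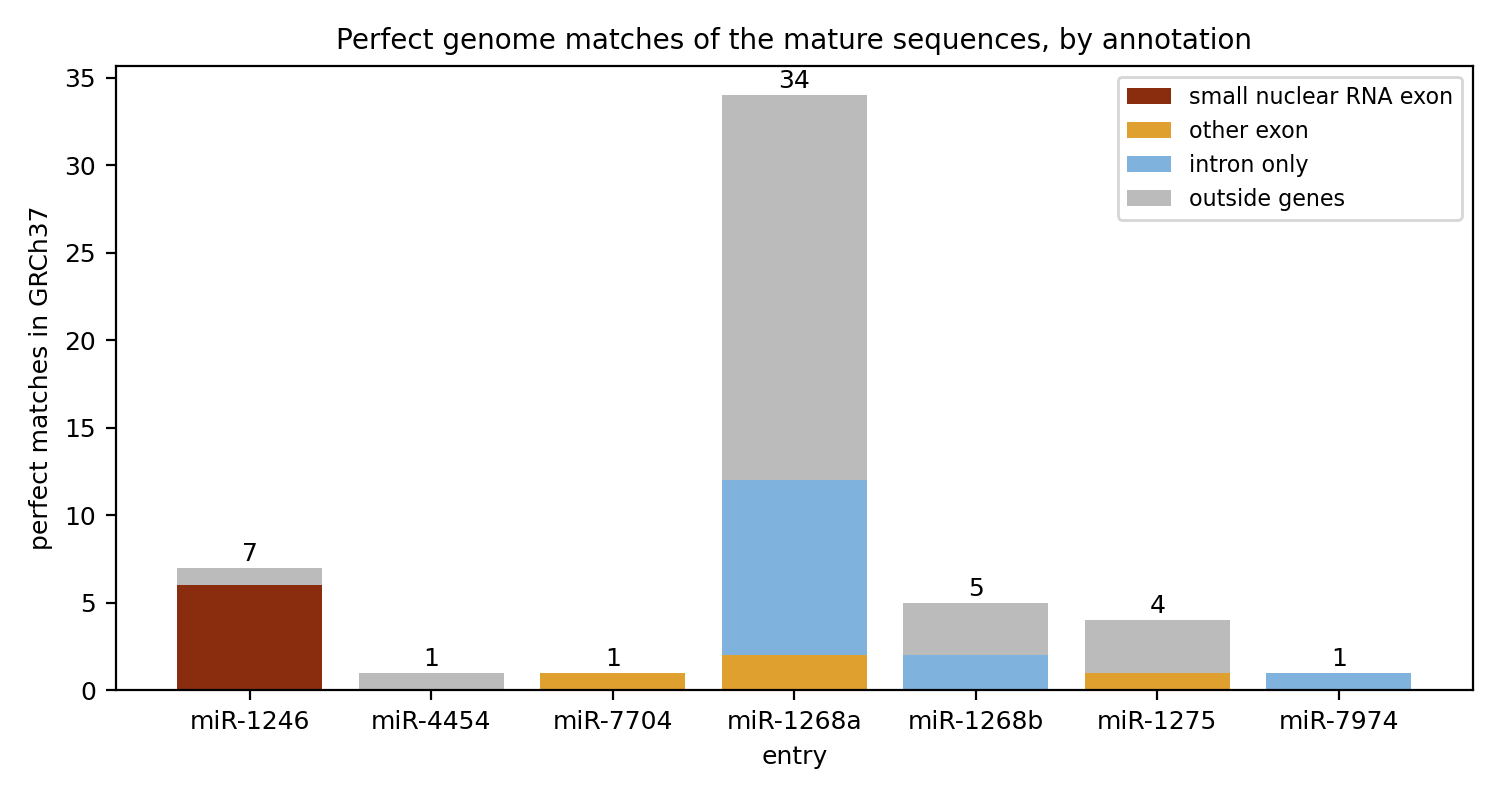
Number of perfect matches of each mature sequence in GRCh37 (vertical axis), split by what the annotation holds at the match. Of the 7 matches of miR-1246, 6 lie in exons of snRNA genes, and 22 of the 34 matches of miR-1268a lie outside genes.

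MiR-1246 is the entry related to U2 snRNA. Its hairpin lies on chromosome 2 at chr2:177465708-177465780, minus strand, outside annotated genes, and the mature sequence at 177465752 to 177465770. The other 6 perfect matches all lie in exons of annotated U2 relatives, namely RNU2-6P, RNU2-7P, RNU2-33P, RNU2-37P, RNU2-48P and RNU2-61P. In the annotated RNU2-2P transcript of 191 nt, the first 14 bases of miR-1246 occur as 1 unbroken run and the whole sequence does not. The counted reads of miR-1246 therefore cannot be assigned to one of these 7 places from the tables. Among all mature sequences, the one with the longest run in common with it was miR-1290 (12 nt), the other entry of the snRNA-like list, which was listed in none of the 12 libraries.

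The level of miR-1246 in CPM was lower in AsPC-1 than in PANC-1, a direction that turns with upper-quartile scaling. In AsPC-1 control libraries 1, 2 and 3 it was 7.43, 8.68 and 7.39 CPM, and in the knockdown libraries 15.5, 15 and 11.5 CPM. In PANC-1 it was 25.5, 16.6 and 12.6 CPM in the controls and 26.0, 21.6 and 22.1 CPM in the knockdown libraries. The AsPC-1 groups did not overlap, and the PANC-1 groups did because control library 1 was nearly as high as the highest knockdown library. The log2 fold change (LFC) on knockdown was 0.85 ± 0.19 (standard error, SE) for AsPC-1 and 0.49 ± 0.18 for PANC-1. Without PANC-1 control library 1 the LFC in PANC-1 was 0.75, and without PANC-1 control library 3 it was 0.31.

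MiR-4454 is the entry related to tRNA, and the one that was lower after knockdown in AsPC-1. Its single match lies at chr4:164014759-164014778, minus strand, outside annotated genes. It shares its last 13 bases (in capitals) with miR-7975, another tRNA-like entry, and both end in CCA, the 3 bases that are added to the 3′ end of every mature tRNA.
miR-4454: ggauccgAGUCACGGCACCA
miR-7975: auccuAGUCACGGCACCA
The single match depends on the first base. Without that base the remaining 19 nt matched at 184 places of GRCh37, and without the first 2 bases the remaining 18 nt matched at 225. These places carry the CCA in the genome itself, and they were not counted by whether they lie in tRNA genes. With the CCA left off the match, 197 and 251 places were found, and the consensus of the B box, the internal promoter element in the T arm of tRNA genes, stood at the match or just before it at 0 and 10 of them. For scale, 5 of 70231 windows of 30 bp from gene promoters held this consensus (0.00712%). The counting used by the authors takes reads whose 5′ end lies within a few bases of the annotated one, and 18 nt is the lower limit of read length they kept.

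The counts of miR-4454 differed more between libraries than those of any other of the 7 entries, with a ratio of 23.5 between the highest and the lowest CPM. The AsPC-1 control libraries had 19.5, 17.5 and 16.3 CPM and the AsPC-1 knockdown libraries 7.92, 10.9 and 9.13 CPM. The PANC-1 control libraries had 186, 110 and 97.0 CPM and the PANC-1 knockdown libraries 103, 105 and 103 CPM. The AsPC-1 groups did not overlap and the PANC-1 groups did, with control library 1 far above the other five. On knockdown the LFC in AsPC-1 was -0.91 ± 0.17. That in PANC-1 was -0.18 ± 0.14. Without PANC-1 control library 1 the LFC in PANC-1 turned to 0.11, and without PANC-1 control library 3 it was -0.35. PANC-1 control library 1 was also the highest of the PANC-1 controls for every other of the 7 entries except miR-7974.

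MiR-1268a and miR-1268b are the entries related to Alu elements, the short interspersed repeats derived from 7SL RNA. The annotated MIR1268A gene holds the mature sequence at chr15:22513259-22513276, minus strand. MiR-1268b lies at chr17:78072630-78072649, plus strand, in an intron of CCDC40, which encodes a protein of motile cilia. Of the 34 places that match miR-1268a, 10 lie in introns and 2 in exons, one of them in CEACAM5, the gene of carcinoembryonic antigen. All 5 places that match miR-1268b are also matches of miR-1268a, which is 2 nt shorter. A read of 18 nt that fits miR-1268a thus fits every place of miR-1268b.

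The counts of both entries were nearly the same reads. They were equal in 10 of the 12 libraries and summed to 231 and 231 in AsPC-1 and to 650 and 654 across PANC-1. The 4 additional counts of miR-1268b (0.452% of its counts) came from PANC-1 knockdown libraries 2 and 3. Fully equal counts were rare in the tables. Among 860 entries with at least 24 counts in all, 15 entries in 6 groups had the same count as another entry in every library, and no entry outside the 7 had counts equal to those of one of the 7. Both entries are therefore 1 measurement and not 2, and each count of entries below holds it as 2 rows.

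MiR-1268a had 2.94, 2.94 and 4.51 CPM in the AsPC-1 controls and 9.27, 7.33 and 10.7 CPM in the AsPC-1 knockdown libraries. In PANC-1 it had 20.7, 16.6 and 18.1 CPM in the controls, and 30, 37.0 and 29.4 CPM in the knockdown libraries. The knockdown libraries lay above the controls in both lines without overlap. The LFC on knockdown was 1.39 ± 0.26 in AsPC-1, from 73 counts in the 3 control libraries together, and 0.94 ± 0.15 in PANC-1. MiR-1268b had the same value in AsPC-1 and 0.96 ± 0.15 in PANC-1.

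MiR-1275 lies at chr6:33967749-33967828, minus strand, and its mature sequence at 33967795 to 33967811. With 17 nt, it is 1 of 59 human mature sequences (2.49%) shorter than the 18 nt the authors kept, so each counted read was longer than the annotated sequence. Of the 3 other matches, 1 is on chromosome 1 and 2 are on the unplaced sequence GL000220.1, 43972 bp apart. GL000220.1 holds ribosomal DNA, and miR-1268a and miR-1268b have a match there too. The AsPC-1 controls had 8.35, 9.38 and 7.52 CPM of miR-1275 and the knockdown libraries 17.5, 15.5 and 18.1 CPM. The PANC-1 controls had 12.4, 8.32 and 7.88 CPM and the knockdown libraries 11.7, 11.6 and 11.8 CPM. The AsPC-1 groups did not overlap, while in PANC-1 control library 1 lay above all knockdown libraries. The LFC on knockdown was 1.03 ± 0.17 for AsPC-1. For PANC-1 it was 0.44 ± 0.22, with a range of 0.34 to 0.63 when 1 library was left out.

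MiR-7704, GC-rich and taken here among the ribosomal-RNA-like entries, lies inside a protein-coding gene. Its mature sequence at chr2:177053571-177053589, plus strand, is in exon 1 of HOXD1, a homeobox transcription factor of body patterning, within the coding part that runs from 177053530 to 177054181. It was the rarest of the 7, with 4, 11 and 11 counts in the AsPC-1 controls and 10, 7 and 7 in the AsPC-1 knockdown libraries. In AsPC-1 this was 0.619 to 1.69 CPM, close to the 3 counts (0.410 to 0.788 CPM) taken as the floor of detection. The 4 counts of AsPC-1 control library 1 have an exact Poisson interval (95%) of 0.169 to 1.58 CPM, which covers counting error only and holds the other AsPC-1 libraries but 1. MiR-7704 was removed by the filter on low counts in AsPC-1, and without the filter its LFC was 0.16 ± 0.47. In PANC-1 it had 3.33, 2.57 and 3.15 CPM in the controls and 4.84, 5.54 and 6.29 CPM in the knockdown libraries. There the groups did not overlap, and the LFC was 1.04 ± 0.30.

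MiR-7974 was the most abundant of the 7 and the only one with a single match and a sequence over the median length. It lies at chr19:11606359-11606382, minus strand, in an intron of ZNF653, a zinc finger gene, at one end of a hairpin that runs to 11606437. The AsPC-1 controls had 125, 132 and 148 CPM and the AsPC-1 knockdown libraries 255, 219 and 213 CPM. The PANC-1 controls had 206, 239 and 236 CPM and the PANC-1 knockdown libraries 267, 287 and 271 CPM. The knockdown libraries lay above the controls in both lines without overlap. The LFC on knockdown was 0.77 ± 0.11 for AsPC-1 and 0.42 ± 0.09 for PANC-1.

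**Figure D2:**
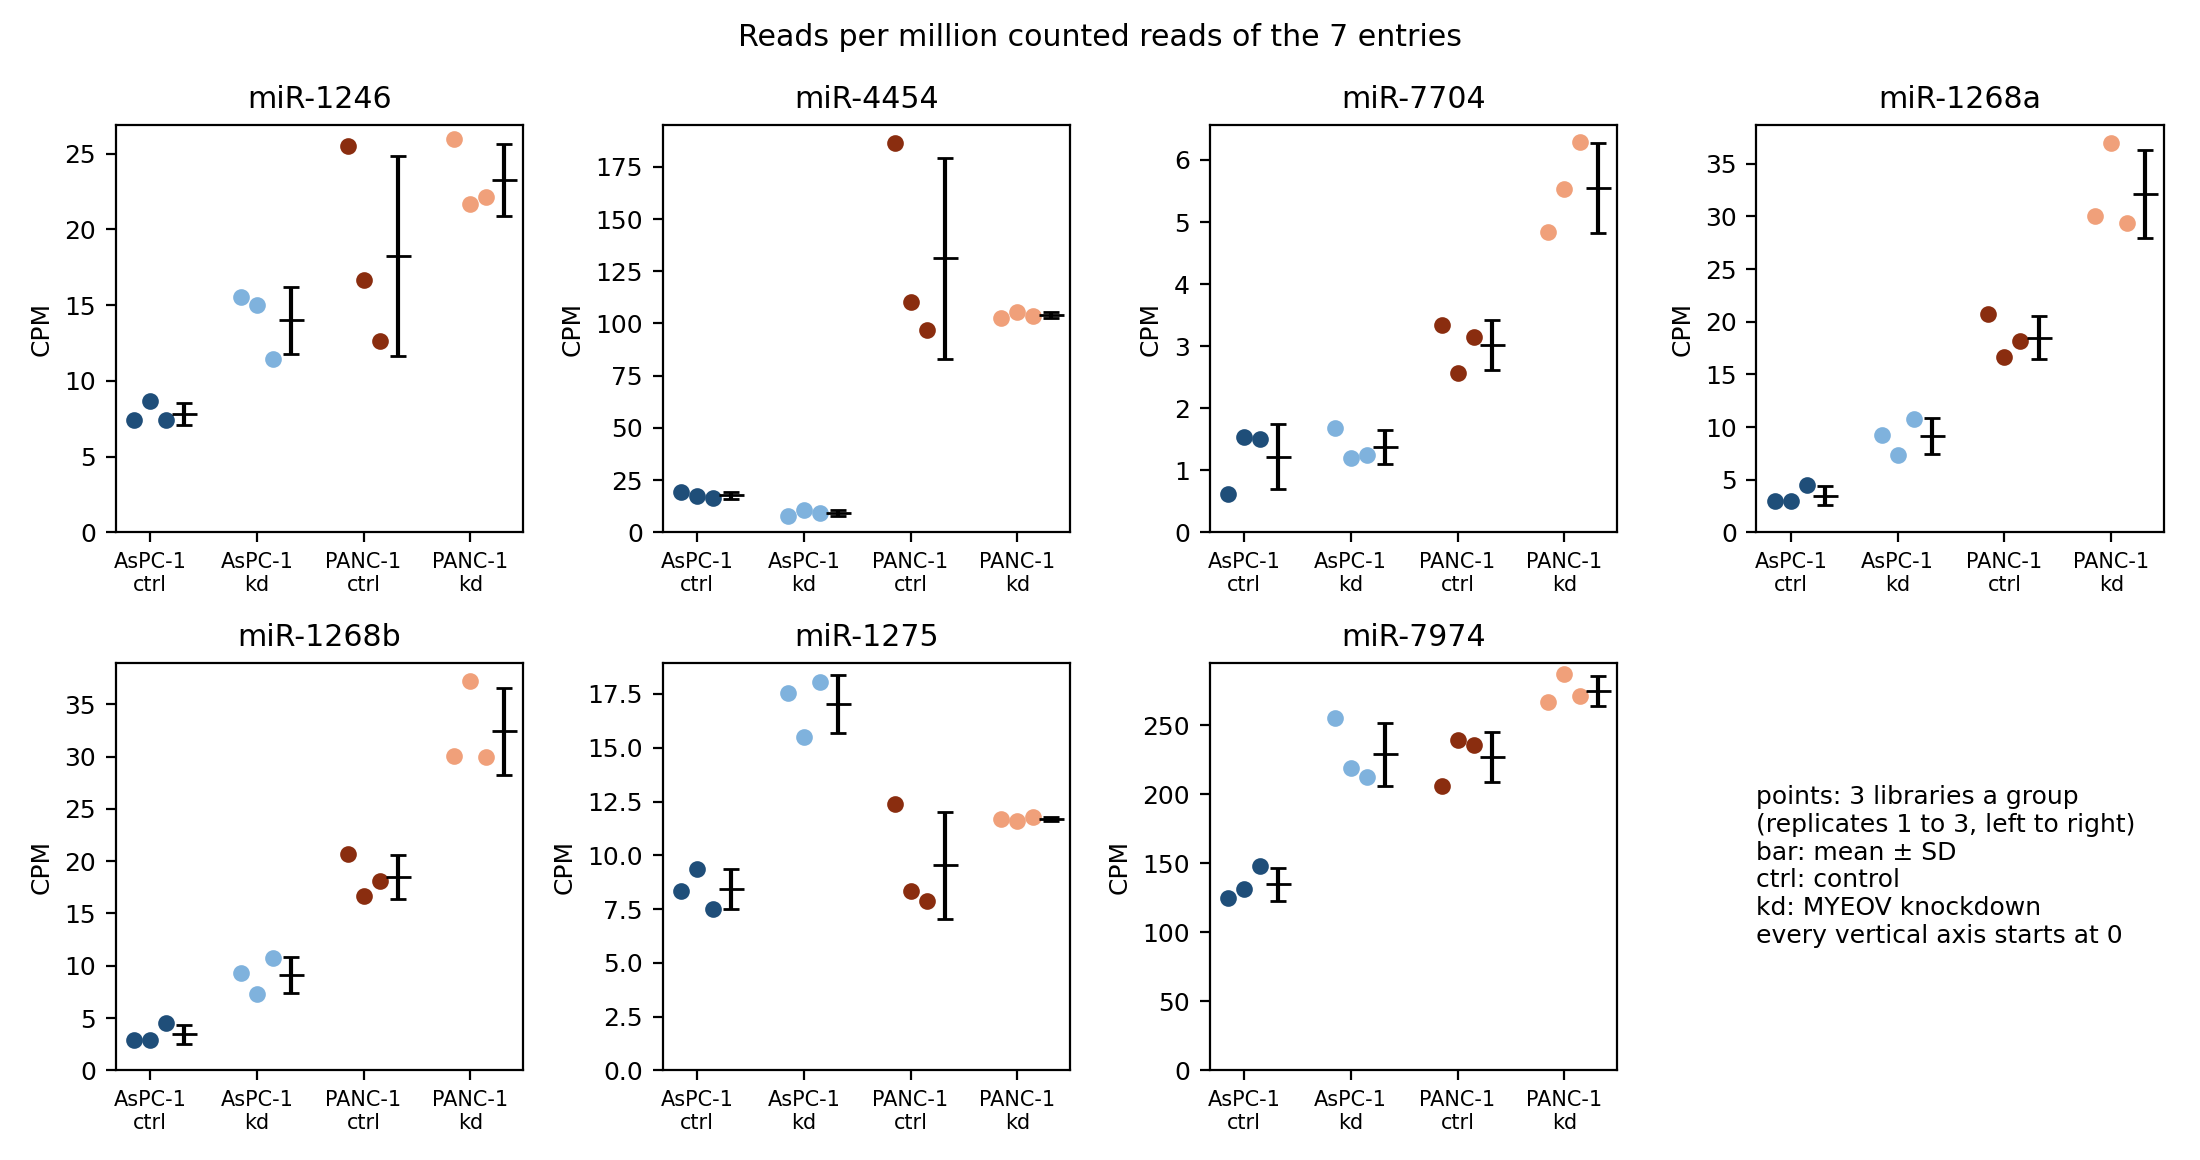
CPM of each entry (vertical axis, from 0) in the 3 libraries of each of 4 groups, with the mean ± SD as a bar. MiR-4454 is the entry that is lower after knockdown in AsPC-1, and PANC-1 control library 1 (186 CPM) stands above the other PANC-1 libraries.

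Together the counts of the 7 entries were a small share of all counts, and reads listed under both miR-1268 names enter this sum under each name. It was 0.0177% ± 0.0012 (SD, n = 3) in AsPC-1 controls, 0.0289% ± 0.0024 in AsPC-1 knockdown libraries, 0.0426% ± 0.0043 in PANC-1 controls and 0.0484% ± 0.0019 in PANC-1 knockdown libraries. MiR-7974 made up 76.2% of these counts in AsPC-1 controls and 53.4% in PANC-1 controls. The share of miR-4454 in them was 9.97% in AsPC-1 controls and 30.7% in PANC-1 controls. All entries except miR-7704 in AsPC-1 lay well above the median entry, which had a mean of 0.529 CPM in AsPC-1 controls and 0.986 CPM in PANC-1 controls.

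The order of the levels differed between the lines. In AsPC-1 controls it was miR-7974 (135 CPM ± 12.2), miR-4454 (17.8 ± 1.63), miR-1275 (8.42 ± 0.930), miR-1246 (7.83 ± 0.735), miR-1268a and miR-1268b (3.46 ± 0.909 each) and miR-7704 (1.22 ± 0.522). Among neighbours in this order, miR-1275 and miR-1246 overlapped, as did both miR-1268 entries. In PANC-1 controls it was miR-7974 (227 CPM ± 18.1), miR-4454 (131 ± 48.2), miR-1268a and miR-1268b (18.5 ± 2.07 each), miR-1246 (18.2 ± 6.58), miR-1275 (9.53 ± 2.48) and miR-7704 (3.02 ± 0.397). Here the miR-1268 entries and miR-1246 overlapped. In AsPC-1 knockdown libraries miR-4454 (9.32 ± 1.5) was below miR-1275 (17.0 ± 1.35) and miR-1246 (14.0 ± 2.21), while in PANC-1 knockdown libraries it remained in the second place (104 ± 1.38). The efficiency of adapter ligation differs between sequences, so the order is that of reads and not necessarily of molecules.

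For the 6 entries with a value in each line, both lines gave the same sign on knockdown, which for miR-4454 holds with all libraries but not without PANC-1 control library 1. Of the 7 entries, 6 passed the filter in AsPC-1 and all 6 were called at an adjusted p under 0.05 (edgeR), 5 of them higher and 1 lower. In PANC-1, 7 passed the filter and 5 were called, all higher. Over all entries tested, 11.4% were called in AsPC-1 (57 of 498, 7.03% higher and 4.42% lower). In PANC-1 22.0% were (121 of 551, 12.7% higher and 9.26% lower). The choice of the members on these contrasts fixed these counts, and nothing is read from them. The median LFC of the members was 0.94 for AsPC-1 and 0.49 for PANC-1, beside -0.0047 and 0.03 for all entries. The groups did not overlap in CPM for 6 members in AsPC-1, where 30.3% of all entries tested did not, and for 4 members in PANC-1, where 38.3% did not. The LFC was further from 0 in AsPC-1 than in PANC-1 for each of the 6, but this difference was not tested because the members were chosen on these contrasts.

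**Figure D3:**
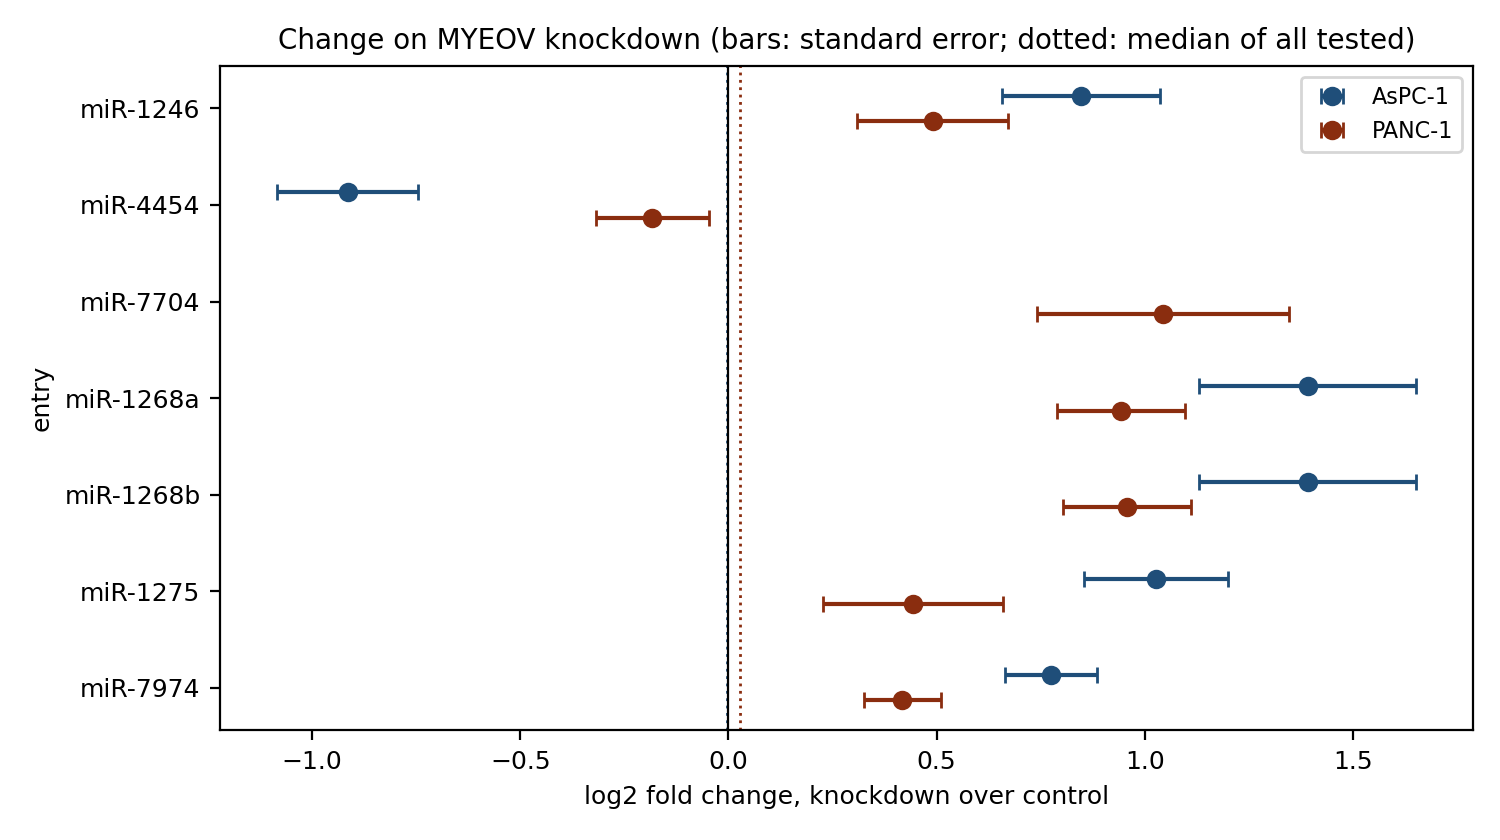
LFC of knockdown over control (horizontal axis, log2) of each entry in AsPC-1 and PANC-1, with the SE as a bar and the median of all tested entries as a dotted line. MiR-4454 lies to the left of 0 in both lines, the other entries lie to the right, and miR-7704 has no value in AsPC-1.

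The difference between the control libraries of the lines is a contrast that did not choose the members, although the choice used the same libraries. In the controls, miR-4454 was 5.81-fold lower in AsPC-1 than in PANC-1 (LFC -2.54 ± 0.20, adjusted p = 1.91e-08, edgeR). MiR-1268a was 4.17-fold lower (LFC -2.06 ± 0.23, adjusted p = 7.87e-07, edgeR), and miR-1268b had the same value. These 2 differences, of 1 tRNA-like and 1 Alu-like measurement, exceeded the median absolute LFC of 1.49 over all 627 entries tested between the lines. MiR-1246 (LFC -0.87 ± 0.23, adjusted p = 0.00306, edgeR) and miR-7974 (-0.42 ± 0.12, adjusted p = 0.00484) were also lower in AsPC-1, by less than that median, and both changed sign with upper-quartile scaling. Without PANC-1 control library 1 the LFC of miR-1246 was -0.56. MiR-7704 passed the filter on low counts in this contrast through PANC-1, where it is higher, so its LFC of -0.92 ± 0.37 is given as a description without a test. It was -0.58 without AsPC-1 control library 1 and -0.0032 with upper-quartile scaling. MiR-1275 differed by 0.17 ± 0.22 (adjusted p = 0.491, edgeR), which was within the spread of the libraries. With upper-quartile scaling the LFC of miR-1275 was 1.09 and passed the threshold, and with total-count scaling it was -0.18 and did not.

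The lines differed in most of the miRNAs. Of all 627 entries tested, 82.8% passed the threshold between the control libraries (36.0% higher and 46.7% lower in AsPC-1), so that the 5 called of the 6 members other than miR-7704 are near the background. The median LFC of all entries was -0.27, and only the distance from it tells a member from the rest. Against that median, the LFC of miR-7974 was small. With upper-quartile scaling, which moves the median by 0.92, miR-1246 (0.055) and miR-7974 (0.51) changed their sign, while miR-4454 (-1.61) and miR-1268a (-1.13) kept theirs and remained called.

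In the knockdown libraries the difference between the lines holds the changes on knockdown for which the members were picked. The values of the members there are therefore given as a description without a test. The difference was again largest for miR-4454, which was 9.37-fold lower in AsPC-1 (LFC -3.23 ± 0.14). Its LFC was -2.38 with upper-quartile scaling. MiR-1268a was 2.97-fold lower (-1.57 ± 0.17). MiR-7704, which again passed the filter through PANC-1, had an LFC of -1.76 ± 0.37, given without a test. With upper-quartile scaling the LFC was -0.72 for miR-1268a and -0.92 for miR-7704. MiR-1275 was the member that was higher in AsPC-1, by 1.73-fold (LFC 0.79 ± 0.19), and its groups did not overlap. With upper-quartile scaling its LFC was 1.63. MiR-1246 was lower by an LFC of -0.48 ± 0.17, which turned to 0.37 with upper-quartile scaling. MiR-7974 had an LFC of -0.02 ± 0.08, although its CPM did not overlap between the lines. This LFC depends on the scaling, and was -0.26 with total-count scaling and 0.83 with upper-quartile scaling. Of all 609 entries, 85.9% were called in this contrast (37.6% higher and 48.3% lower in AsPC-1), and 87.7% did not overlap in CPM. With 82.6% of entries not overlapping between the control libraries, the 6 and 7 members whose lines did not overlap in CPM are close to the background in either case.

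**Figure D4:**
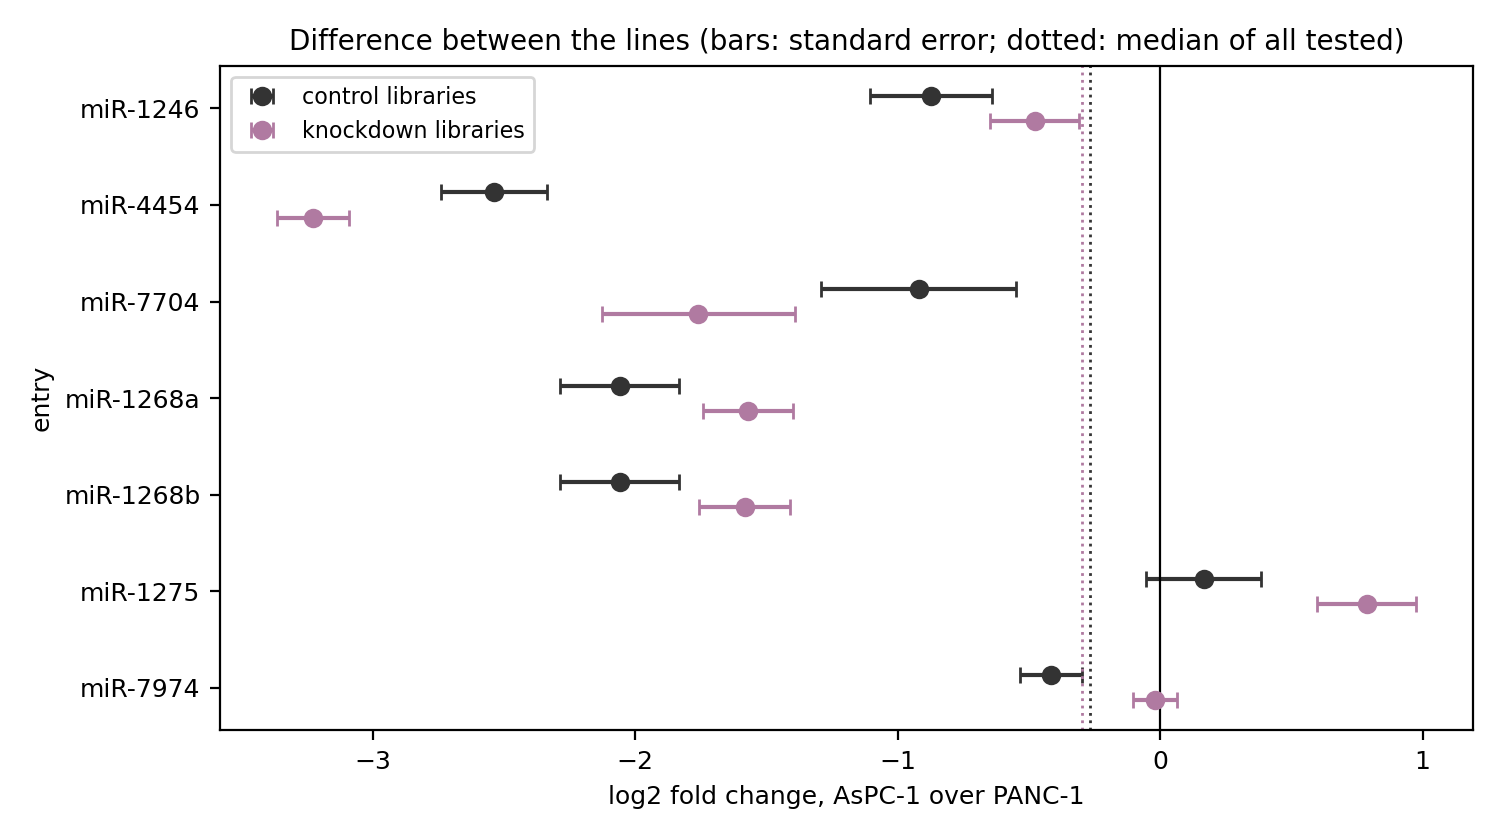
LFC of AsPC-1 over PANC-1 (horizontal axis, log2) of each entry in control and in knockdown libraries, with the SE as a bar and the median of all tested entries as dotted lines. MiR-4454 lies furthest to the left in both, and miR-1275 is the entry to the right of 0 in the knockdown libraries.

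Lists of tRNA-like, snRNA-like, snoRNA-hosted, ribosomal-RNA-like and Alu-like names held 35 further entries in the tables, of which 24 had a mean under 1 CPM. In AsPC-1, 8 of them were tested on knockdown and 1 fell, with none higher, at a median LFC of 0.26, beside the 11.4% called over all entries. In PANC-1, 8 were tested and 2 rose, with none lower, at a median LFC of 0.19, beside 22.0% over all entries. Between the lines, 9 were tested in the control libraries, 4 were higher and 3 lower in AsPC-1, and their median LFC was 0.07 beside -0.27 for all entries, of which 82.8% were called. In the knockdown libraries 8 were tested, 5 were higher and 1 lower in AsPC-1, and their median LFC was 0.89 beside -0.30, with 85.9% of all entries called. Among the tRNA-like entries, miR-1260b was the only one tested. It had 30.6 CPM ± 3.76 in AsPC-1 controls and 38.8 ± 2.33 after knockdown (LFC 0.36 ± 0.13, adjusted p = 0.076, edgeR), and 36.9 ± 11.4 and 46.1 ± 2.03 in PANC-1, where it rose (LFC 0.47 ± 0.15, adjusted p = 0.022). The level of miR-1260b did not pass the threshold between the lines (control libraries, LFC 0.07 ± 0.18). MiR-7975, which shares the 3′ part of miR-4454, reached a mean of 0.170 CPM at most, in PANC-1 knockdown libraries.

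Among the Alu-like entries, miR-1303 was by far the most abundant, with 466 CPM ± 46.3 in AsPC-1 controls and 838 ± 57.8 in PANC-1 controls. It fell on knockdown in AsPC-1 (LFC -0.43 ± 0.10, adjusted p = 0.011, edgeR), where miR-1268a was higher. In PANC-1 its LFC was 0.19 ± 0.09 and did not pass the threshold. MiR-1285-3p, also Alu-like, rose in PANC-1 (LFC 0.44 ± 0.14, adjusted p = 0.026, edgeR) and was higher in AsPC-1 controls than in PANC-1 controls (LFC 1.33 ± 0.13). Its LFC in AsPC-1 was 0.11 ± 0.11. Of the snoRNA-hosted entries, those cut from precursors that also carry a small nucleolar RNA, miR-664a-3p had LFCs of 0.16 ± 0.12 for AsPC-1 and -0.20 ± 0.15 for PANC-1, and neither passed the threshold. MiR-664b-3p (-0.38 ± 0.26 and -0.30 ± 0.37) and the Alu-like miR-1285-5p (0.59 ± 0.23 and 0.64 ± 0.33) passed it in neither line. The ribosomal-RNA-like miR-3687 had 1.92 CPM ± 0.264 in AsPC-1 controls and an LFC of 0.75 ± 0.34 in AsPC-1 that did not pass the threshold.

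The content of G and C was compared because 6 of the 7 members have at least 60%. Of the entries tested, 88.4% had a known sequence in the AsPC-1 fit and 88.7% had one in the PANC-1 fit. The other entries with at least 60% GC had a median LFC on knockdown of -0.19 in AsPC-1 (63 entries, 1 higher and 6 lower at the threshold) and of -0.09 in PANC-1 (65 entries, 5 higher and 7 lower). The entries with 50% to 60% GC had a median LFC of 0.11 in AsPC-1 (129 entries, 14 higher and 3 lower) and also of 0.11 in PANC-1 (147 entries, 26 higher and 7 lower). The part of GC content in the changes of the members was not tested.

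After the mean of each line was taken off log2(CPM + 1), miR-7974 was most like miR-125b-1-3p (Pearson r = 0.966 over 12 libraries), miR-30e-3p (0.966) and miR-486-3p (0.953). The most like miR-1268a were miR-30e-3p (0.933), miR-378d (0.924) and miR-486-3p (0.915), and miR-1268b gave the same 3 names. MiR-1275 was nearest to miR-92a-1-5p (0.913), miR-486-3p (0.905) and miR-25-5p (0.902). MiR-1246 was nearest to let-7e-3p (0.893), miR-339-3p (0.855) and miR-181a-2-3p (0.851). MiR-4454 was nearest to miR-425-3p (0.893), miR-769-3p (0.886) and miR-651-5p (0.865), and miR-7704 to miR-32-3p (0.854), miR-148a-3p (0.796) and miR-548f-3p (0.783). Among the members, miR-4454 ran opposite to miR-7974 (r = -0.907) and to miR-1268a (-0.740). MiR-1246 and miR-1275 ran together (0.894), as did miR-1268a and miR-1268b (0.9999), which share their reads. These values are descriptions over 12 libraries that share the knockdown, the library and its depth.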

How the data were processed

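Small RNA of 12 libraries, 3 control and 3 MYEOV-knockdown libraries of AsPC-1 and PANC-1, was grouped by the sample titles. The authors trimmed the adapters, mapped the reads to hg19 with Bowtie (version not given in the sources used here), kept perfect matches from 18 nt in length, and deposited counts per mature miRNA and library without normalization. A count sums the reads that share the 5′ end of the most abundant sequence near the annotated one, so a read with several matches can be counted under several names. Entries not listed in a library were set to 0. CPM is the count per 1000000 counts of the library, and 3 counts equal 0.410 to 0.788 CPM. Each comparison was fitted separately with edgeR 4.0.16 in R 4.3.3 (filterByExpr with a minimum count of 10, TMM factors, quasi-likelihood F test without a replicate block), with Benjamini-Hochberg adjustment over all entries tested and a threshold of 0.05. The fits were tested on simulated data. No pair of replicates agreed within sampling noise (chi-square per degree of freedom 8.13 to 224). The highest values, 224 and 183, were those of AsPC-1 control library 1 against control libraries 2 and 3. The next was 59.7, for PANC-1 knockdown libraries 1 and 3. Nothing in the labels says that replicates came from separate cultures, so p-values measure the spread between these libraries. In edgeR the estimate of that spread shares information between all entries tested. Mature sequences came from RefSeq, and perfect matches on both strands of GRCh37 and the GENCODE annotation were found by exact search. The hairpins of miR-4454, miR-1268a and miR-1268b were not used here. The members and lists were chosen with earlier results of these data known. All 7 members were named, with the 3 most abundant entries of each list, where tested, and the 3 entries outside the 7 most like each member. The grouping by GC content was chosen after seeing the data. Other size factors, the Wald test of DESeq2 1.42.0, other filters, all 12 libraries in one fit, a replicate block, and leaving out each library in turn were tried as alternatives.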

Additional observations from a re-analysis of the deposited data

How the results depend on the processing

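On knockdown, the LFCs of the members moved by less than the spread between replicates in 179 of 181 alternatives. The 2 exceptions were miR-7974 in PANC-1 with total-count scaling (0.28) and without PANC-1 control library 1 (0.32). Leaving out 1 of 3 libraries can hardly move an LFC beyond that spread, so those alternatives show little about stability. The LFC of miR-4454 in PANC-1 counted as unmoved, although it turned from -0.18 to 0.11 without PANC-1 control library 1. The number of entries called in AsPC-1 was 57, and 24 to 102 with 1 library left out (102 without control library 1, 24 and 31 without knockdown libraries 1 and 3). In PANC-1 it was 121, and 55 to 129 with 1 library left out (55 and 68 without knockdown libraries 3 and 2), and 67 in one fit of all 12 libraries. The libraries were not treated as paired by replicate number. Correlations of the deviations of same-numbered libraries ran from -0.160 to 0.141 on knockdown. Between the lines they ran from 0.0995 to 0.263 in controls and from -0.0373 to 0.0101 in knockdown libraries. In no comparison were all 3 above 0.1, but those between the lines in controls were all positive, so a pairing is not excluded. With a replicate block 29 entries were called in AsPC-1 and 153 in PANC-1. With total-count scaling, 18.2% of the PANC-1 calls were higher, against 57.9% with TMM, and the median shifted by -0.15. In one fit of all 12 libraries, 35.7% of the AsPC-1 calls were higher.

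Between the lines, 177 of 194 alternatives changed neither whether a member passed the threshold nor the direction of one that did. This tally includes miR-7704 and the knockdown libraries, whose values are given without a test, so it is a description only. With upper-quartile factors the LFC of miR-1246 was 0.055 in the control libraries and 0.37 in the knockdown libraries, that of miR-7974 was 0.51 and 0.83, and that of miR-1275 in the controls was 1.09 and passed the threshold. Of the 17 exceptions, 9 were those of miR-7704 in the control libraries, with an LFC of -0.0032 with upper-quartile factors and of -1.11 to -0.58 with 1 library left out. With total-count scaling that of miR-7974 in the knockdown libraries was -0.26 and passed it. With at least 10 counts in every library, 302 entries were called between the control libraries and 315 between the knockdown libraries, of fewer entries tested. MiR-7974 in the controls lost its call without PANC-1 control library 3 (adjusted p = 0.0579, edgeR). The tally also holds a lost call of miR-1246 in the knockdown libraries, without AsPC-1 knockdown library 3. Depth limits miR-7704, which had under 10 counts in 3 libraries.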
